A study of Mus musculus with 2 samples.

Results

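The 10 genes Meg3, Rian, Dlk1, Ndn, Nap1l5, Peg3, Cdkn1c, Plagl1, Grb10 and Peg10, which are known to be imprinted in the mouse, were described across the cell types of the embryonic forebrain. They are the rows of both count matrices that carry one of these symbols, and they make up 10 of 32285 genes counted. The list was drawn up with values of these libraries known, so the levels below are a description and carry no test. Levels are UMI counts summed over the cells of a class and scaled to all UMIs of that class (counts per 1000000 UMIs, CPM). A gene was taken as measured in a class if 1 library or both reached 20 CPM and the libraries together gave 100 UMIs or more. Over all cells 8 of the 10 genes met that minimum, as did 7017 genes in all, and Dlk1 and Peg10 did not.

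Forebrains were taken at embryonic day 18.5, dissociated with papain and made into droplet libraries with 10x chemistry. One library was labelled Cyfip2 knockout and the other wild type, and each held 2 pooled forebrains, so that each group is 1 library with no replicate and no test between them could be made. Cyfip2 encodes a subunit of the WAVE complex, which activates branching of actin filaments. Strain, kind of allele and deleted part of Cyfip2 stand in none of the sources used here.

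Cyfip2 tags did not drop out of the library labelled knockout. Over all cells they came to 83.5 CPM in knockout-labelled and 83.8 CPM in wild-type-labelled cells. In progenitors they stood at 65.0 CPM in knockout-labelled and 37.9 CPM in wild-type-labelled progenitors, and in excitatory neurons at 93.0 CPM in knockout-labelled and 104 CPM in wild-type-labelled excitatory neurons. Single classes, named as given below, differed more and in both directions. Ganglionic eminence progenitors held 56.4 CPM in knockout-labelled and 15.3 CPM in wild-type-labelled cells. Vascular cells held 123 CPM in knockout-labelled and 11.9 CPM in wild-type-labelled cells, from 127 and 9 UMIs. Medial eminence interneurons held 74.2 CPM in knockout-labelled and 103 CPM in wild-type-labelled cells. A tag near the 3′ end of a transcript checks a deletion only where it lies inside the deleted part, so these counts leave the genotype unchecked, and the libraries are named by their labels throughout.

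The knockout-labelled library held 150828048 UMIs and the wild-type-labelled library 123978461. Barcodes counted as cells from 1000 UMIs and 500 genes upward if no more than 10% of their UMIs were mitochondrial, and 11533 knockout-labelled and 8426 wild-type-labelled cells were kept after removal of likely doublets. Their median depth was 7639 UMIs in knockout-labelled and 9463 UMIs in wild-type-labelled cells, and mitochondrial UMIs made up 2.50% in knockout-labelled and 2.37% in wild-type-labelled cells. The libraries shared 32 cell barcodes, 28 of them among the kept cells. Cells were clustered without any of the imprinted genes, and clusters were named from fixed marker genes. Class names below are short for cells like that type. Excitatory neurons made up 5528 knockout-labelled and 4498 wild-type-labelled cells, GABAergic neurons 3477 knockout-labelled and 2024 wild-type-labelled cells, and progenitors 1817 knockout-labelled and 1470 wild-type-labelled cells. Intervals are exact 95% Poisson or binomial intervals and cover counting error only.

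Imprinted genes are expressed from a single parental copy, chosen by methylation marks that are set in the egg or the sperm and kept in the embryo. The zinc finger protein ZFP57 holds many of these marks by binding a methylated hexamer. The genes lie in domains, often with a long noncoding RNA beside protein-coding genes, and many of them steer growth of the embryo and placenta. Several remain strongly expressed in neurons. The tags counted here do not separate the parental copies, so that levels were measured and imprinting itself was not.

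The domain that contributes 3 of the 10 genes lies on chromosome 12. In the GENCODE annotation of GRCm38, the assembly also named mm10, Dlk1 lies at chr12:109452823-109463336, Meg3 at chr12:109541001-109571726 and Rian at chr12:109603940-109661716, all on the plus strand. Dlk1 is expressed from the paternal copy, and the noncoding RNAs Meg3 and Rian from the maternal copy. The stretches before the RefSeq start of Meg3, chr12:109540746-109540995, and before that of Dlk1, chr12:109452573-109452822, are shown because these genes share a domain and are set apart below by where they are expressed. Sequences are from RefSeq, GRCm38.p6, plus strand, with the ZFP57 hexamer TGCCGC on either strand in capitals.
Meg3: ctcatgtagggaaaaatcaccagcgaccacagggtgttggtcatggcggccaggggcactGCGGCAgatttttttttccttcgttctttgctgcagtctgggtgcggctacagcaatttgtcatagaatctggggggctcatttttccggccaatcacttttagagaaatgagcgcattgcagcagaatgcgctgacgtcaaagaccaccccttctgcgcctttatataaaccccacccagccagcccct
Dlk1: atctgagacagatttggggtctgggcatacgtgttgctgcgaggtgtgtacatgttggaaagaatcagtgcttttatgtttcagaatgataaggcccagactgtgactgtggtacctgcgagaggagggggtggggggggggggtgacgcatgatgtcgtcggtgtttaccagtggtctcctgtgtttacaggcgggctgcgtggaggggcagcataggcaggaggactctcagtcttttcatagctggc
The Meg3 stretch held 10 CpG and 1 hexamer, and the Dlk1 stretch 8 CpG and none. In windows of 300 bases around the starts, the hexamer occurred in 4 of 10 windows of the 8 genes with an entry, against 11.6% of 32851 promoters. The hexamer holds a CpG, and the promoters were not matched for CpG. The 4 windows with it held 13, 17, 26 and 45 CpG and those without it 0 to 13, against a median of 7 over all promoters. The YY1 motif GCCATNTT, searched on both strands, occurred in 0 of those 10 windows and in 6.05% of all promoters. A match is a string of letters and not a site of binding.

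Peg3 and its neighbour Usp29 start head to head on chromosome 7, with Peg3 at chr7:6703892-6730431 on the minus strand. The 146 bases between the annotated starts, chr7:6730432-6730577, are given 5′ to 3′ in the direction of Peg3, because the levels of this pair are set side by side below. They held 5 CpG and no hexamer.
Peg3: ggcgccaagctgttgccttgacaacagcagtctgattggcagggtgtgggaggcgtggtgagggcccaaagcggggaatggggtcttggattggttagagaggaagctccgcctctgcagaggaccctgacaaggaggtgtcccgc

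Meg3 and Rian also carry microRNA hairpins in their introns or exons. Their mature microRNAs were not measured, since these libraries count polyadenylated tags, and they are shown to say what the host transcripts can give rise to. Capitals mark the seed, bases 2 to 8, and all 5 seeds differ. The first pair lies inside Meg3 and the other 3 inside Rian.
mmu-miR-770-5p: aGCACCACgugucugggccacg
mmu-miR-770-3p: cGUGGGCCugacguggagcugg
mmu-miR-341-3p: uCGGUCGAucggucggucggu
mmu-miR-1188-5p: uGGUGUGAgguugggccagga
mmu-miR-370-3p: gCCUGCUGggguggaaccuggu

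Meg3, a nuclear long noncoding RNA, was highest in GABAergic neurons, and it was found in most other classes at lower levels. It reached 4671 CPM in knockout-labelled and 5273 CPM in wild-type-labelled caudal or lateral eminence interneurons, and 4528 CPM in knockout-labelled and 4405 CPM in wild-type-labelled striatal neurons. Medial eminence interneurons followed with 2339.8 CPM in knockout-labelled and 2594 CPM in wild-type-labelled cells. Outside its cluster 17, described below, that class held 1099 CPM in knockout-labelled and 1248 CPM in wild-type-labelled cells. This was less than in 2 excitatory classes, the deep-layer neurons and cluster 13. In the knockout-labelled library the intervals of the first pair of classes overlapped, and in the wild-type-labelled library they did not. Among excitatory classes Meg3 was unevenly spread. The deep-layer neurons, which settle earliest in the cortical plate, held 1463 CPM in knockout-labelled and 1571 CPM in wild-type-labelled cells, and excitatory cluster 13, led by Tfap2d, held 1907 CPM in knockout-labelled and 2073 CPM in wild-type-labelled cells. Migrating neurons held 53.4 CPM in knockout-labelled and 51.7 CPM in wild-type-labelled cells, so that the level differed by more than an order of magnitude within the excitatory family in both libraries.

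Outside the cortical and GABAergic neurons Meg3 was high in Cajal-Retzius cells, at 3008 CPM in knockout-labelled and 2642 CPM in wild-type-labelled cells, and in meningeal fibroblasts, at 2273 CPM in knockout-labelled and 2047 CPM in wild-type-labelled cells. These classes were small, with 64 knockout-labelled and 39 wild-type-labelled Cajal-Retzius cells and 31 knockout-labelled and 27 wild-type-labelled fibroblasts. Microglia stood lowest of the 19 classes with at least 50 cells in each library, at 37.7 CPM in knockout-labelled and 16.7 CPM in wild-type-labelled microglia. Barcodes with under 100 UMIs, which hold free RNA, carried Meg3 at 1242 CPM in the knockout-labelled and 875 CPM in the wild-type-labelled library, so a low level in a class cannot be told apart from free RNA.

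Rian, a noncoding RNA that hosts small nucleolar RNAs and microRNAs, followed Meg3 from class to class. It stood at 442 CPM in knockout-labelled and 444 CPM in wild-type-labelled striatal neurons, and at 347 CPM in knockout-labelled and 434 CPM in wild-type-labelled caudal or lateral eminence interneurons. Cajal-Retzius cells held 430.2 CPM in knockout-labelled and 435 CPM in wild-type-labelled cells, and deep-layer neurons 197 CPM in knockout-labelled and 206 CPM in wild-type-labelled cells. Across 19 classes in both libraries, 38 points that share libraries, the Pearson correlation of log2(CPM + 1) between Rian and Meg3 was 0.97. Within families the correlation from cell to cell lay between 0.45 and 0.61 in the 6 combinations of family and library, the highest in excitatory neurons of the wild-type-labelled library. No other pair of members came as close by class.

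The mixture of the transcripts was not constant. Of the UMIs of Meg3 and Rian together, Rian gave 8.58% in knockout-labelled and 8.54% in wild-type-labelled GABAergic neurons, and 12.01% in knockout-labelled and 12.6% in wild-type-labelled excitatory neurons. It was 6.91% in knockout-labelled and 7.61% in wild-type-labelled caudal or lateral eminence interneurons and 7.59% in knockout-labelled and 7.05% in wild-type-labelled medial eminence interneurons. It was higher in excitatory cluster 5, at 16.7% in knockout-labelled and 18.2% in wild-type-labelled cells. Of the classes with at least 50 cells in each library, the haemoglobin-rich cluster 16 stood highest, with 34.5% in knockout-labelled and 39.0% in wild-type-labelled cells. That cluster had a median of 2239 UMIs in knockout-labelled and 2224 UMIs in wild-type-labelled cells and Malat1 at 4369 CPM in knockout-labelled and 1399.7 CPM in wild-type-labelled cells, against 34153 CPM in knockout-labelled and 31848 CPM in wild-type-labelled excitatory neurons. Whether its RNA content bears on the mixture was not tested. Mirg, the microRNA host that lies beyond Rian, also followed Meg3 across classes, with a correlation of 0.94, at 5.38 CPM in knockout-labelled and 4.70 CPM in wild-type-labelled cells overall.

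**Figure D1:**
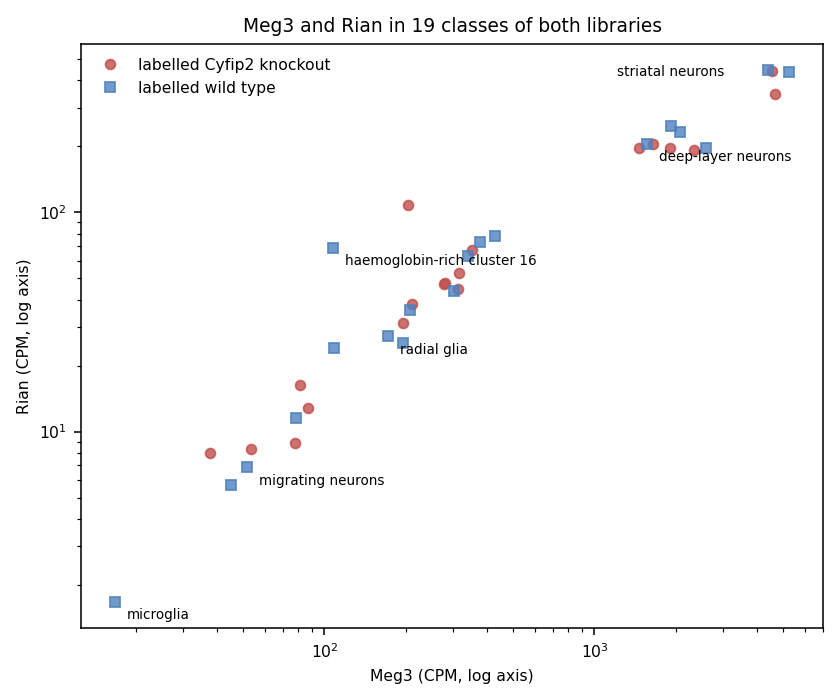
Rian against Meg3, both in CPM on log axes, in the 19 classes with at least 50 cells in each library; circles are the library labelled Cyfip2 knockout and squares the library labelled wild type, and single classes are named at their wild-type-labelled point. The points run along a single diagonal from microglia to striatal neurons, with the 2 points of the haemoglobin-rich cluster 16 above it.

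Ndn, which encodes necdin, a MAGE family protein of postmitotic neurons, was spread through nearly all neural classes. It lies at chr7:62346569-62350262. Its level was 694 CPM in knockout-labelled and 454 CPM in wild-type-labelled medial eminence interneurons, and 284 CPM in knockout-labelled and 248 CPM in wild-type-labelled cells of that class outside cluster 17. It was 681 CPM in knockout-labelled and 575 CPM in wild-type-labelled Cajal-Retzius cells. Deep-layer neurons held 407 CPM in knockout-labelled and 376 CPM in wild-type-labelled cells, and radial glia, the stem cells of the ventricular zone, held 268 CPM in knockout-labelled and 279 CPM in wild-type-labelled cells. The lowest of the neural classes was excitatory cluster 0, at 114 CPM in knockout-labelled and 106 CPM in wild-type-labelled cells. Ndn was thus present in progenitors as well as in neurons, and among the 19 classes only microglia fell below 100 CPM, with 14.9 CPM in knockout-labelled and 1.67 CPM in wild-type-labelled microglia.

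Nap1l5, a small intronless gene related to nucleosome assembly proteins, was mostly a gene of neurons. Among the 19 classes it was highest in medial eminence interneurons, at 297 CPM in knockout-labelled and 132 CPM in wild-type-labelled cells, and next in excitatory cluster 2, at 91.7 CPM in knockout-labelled and 104 CPM in wild-type-labelled cells. The medial eminence value rests on its cluster 17, described below, and the rest of the class stood at 103 CPM in knockout-labelled and 106 CPM in wild-type-labelled cells. Migrating neurons held 7.74 CPM in knockout-labelled and 6.10 CPM in wild-type-labelled cells, and intermediate progenitors 5.89 CPM in knockout-labelled and 4.04 CPM in wild-type-labelled cells. Progenitors as a family stayed below the minimum of 20 CPM in both libraries. In the oligodendrocyte lineage, a class of 17 knockout-labelled and 8 wild-type-labelled cells, it stood at 367 CPM in knockout-labelled and 493 CPM in wild-type-labelled cells. Nap1l5 at chr6:58905233-58907076 lies inside Herc3 on the opposite strand, and the strand used in counting is not stated, so part of its tags could belong to Herc3. Herc3 itself was at 23.5 CPM in knockout-labelled and 26.1 CPM in wild-type-labelled cells, and the correlation of the pair across classes was 0.28.

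Peg3, a zinc finger protein expressed from the paternal copy, was found in interneurons, progenitors and some excitatory neurons. It stood at 176 CPM in knockout-labelled and 112 CPM in wild-type-labelled medial eminence interneurons, but at 69.6 CPM in knockout-labelled and 73.5 CPM in wild-type-labelled cells of that class outside its cluster 17. It stood at 128 CPM in knockout-labelled and 117 CPM in wild-type-labelled caudal or lateral eminence interneurons. Radial glia held 103 CPM in knockout-labelled and 112 CPM in wild-type-labelled cells, and excitatory cluster 0 held 107 CPM in knockout-labelled and 114 CPM in wild-type-labelled cells. Low values were 28.3 CPM in knockout-labelled and 38.2 CPM in wild-type-labelled cells of excitatory cluster 5, and 34.5 CPM in knockout-labelled and 32.0 CPM in wild-type-labelled intermediate progenitors. The highest level of all was in meningeal fibroblasts, at 580.3 CPM in knockout-labelled and 342 CPM in wild-type-labelled cells. Usp29, across the 146 bases shown above, had a correlation of 0.69 with Peg3 over the classes. Over all cells Usp29 stood at 75.2 CPM in knockout-labelled and 70.4 CPM in wild-type-labelled cells.

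**Figure D2:**
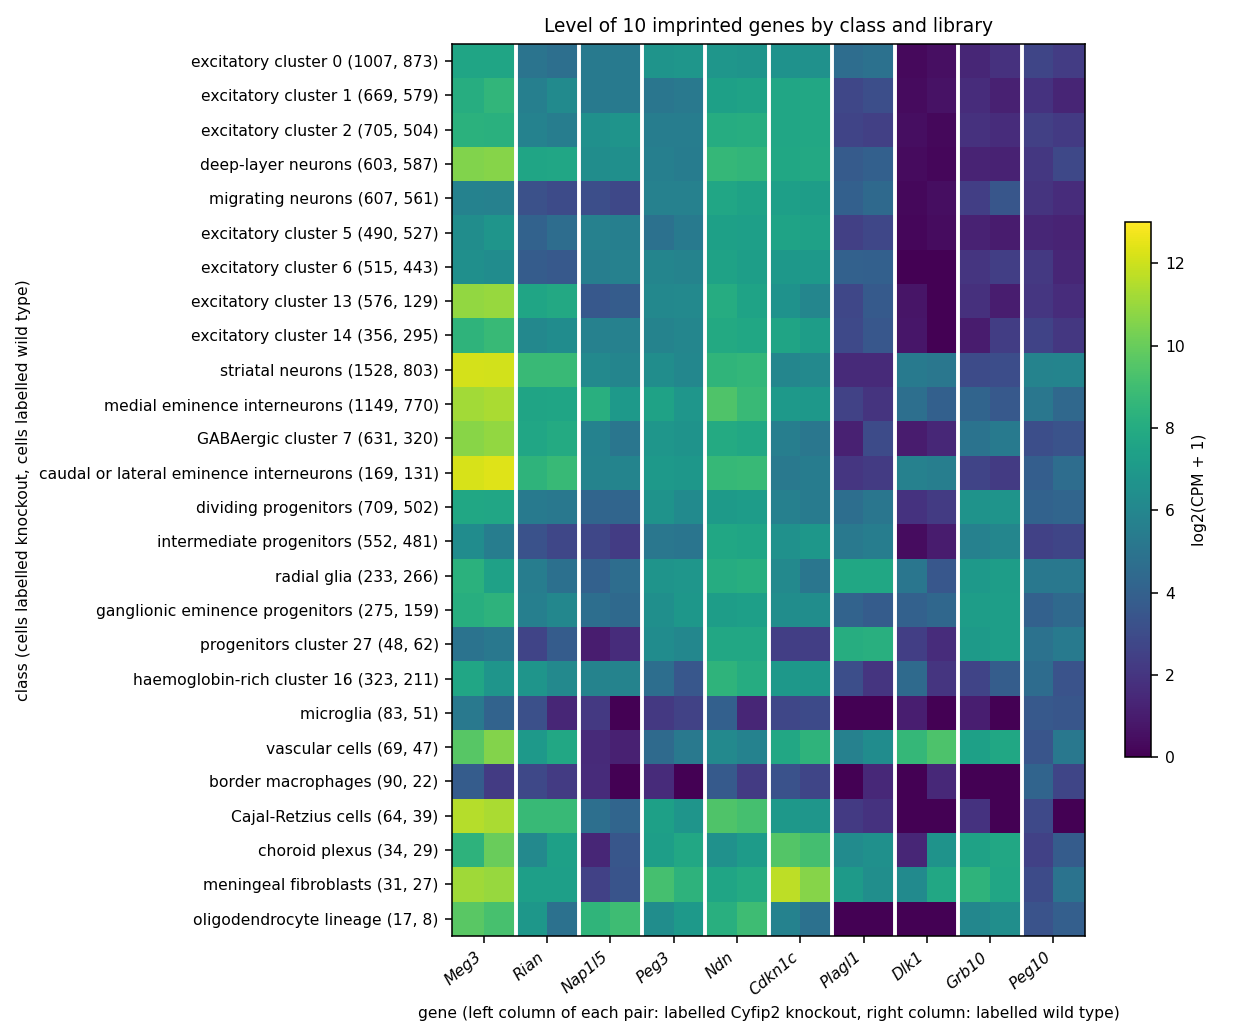
Level of each of the 10 genes as log2(CPM + 1), by colour, in 26 classes; in each pair of columns the left is the library labelled Cyfip2 knockout and the right the library labelled wild type, and the cell numbers of both stand beside the class. Meg3 is brightest in striatal neurons and in caudal or lateral eminence interneurons, Plagl1 in radial glia and cluster 27, and Cdkn1c in meningeal fibroblasts.

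Cdkn1c encodes p57, an inhibitor of cyclin-dependent kinases that stops the cell cycle, and is expressed from the maternal copy of chr7:143458339-143461050. It was a gene of excitatory neurons rather than of GABAergic neurons, at 175 CPM in knockout-labelled and 182 CPM in wild-type-labelled excitatory neurons, against 84.5 CPM in knockout-labelled and 85.4 CPM in wild-type-labelled GABAergic neurons. Deep-layer neurons held 216 CPM in knockout-labelled and 230.3 CPM in wild-type-labelled cells, and intermediate progenitors, which are about to leave the cycle, held 94.1 CPM in knockout-labelled and 116 CPM in wild-type-labelled cells. Dividing progenitors held 49.8 CPM in knockout-labelled and 40.9 CPM in wild-type-labelled cells. Progenitors of cluster 27, led by the mitotic genes Cenpf, Aspm, Ccnb1 and Cdc20, stood at 4.27 CPM in knockout-labelled and 4.29 CPM in wild-type-labelled cells. By far the highest level was in meningeal fibroblasts, at 3311 CPM in knockout-labelled and 1586 CPM in wild-type-labelled cells, followed by choroid plexus at 736 CPM in knockout-labelled and 548 CPM in wild-type-labelled cells.

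Plagl1, also called Zac1, a zinc finger factor that restrains growth, was uneven within the progenitors. It lies at chr10:13060504-13131694. Radial glia held 214 CPM in knockout-labelled and 215 CPM in wild-type-labelled cells, and cluster 27 held 273 CPM in knockout-labelled and 292 CPM in wild-type-labelled cells. Intermediate progenitors held 36.9 CPM in knockout-labelled and 44.6 CPM in wild-type-labelled cells, and dividing progenitors 25.3 CPM in knockout-labelled and 33.6 CPM in wild-type-labelled cells. The ganglionic eminence progenitors, which give rise to GABAergic neurons, stood lower still at 16.8 CPM in knockout-labelled and 12.7 CPM in wild-type-labelled cells. In GABAergic neurons the level was 3.05 CPM in knockout-labelled and 2.97 CPM in wild-type-labelled cells. Radial glia and cluster 27 thus carried it, and ganglionic eminence progenitors and GABAergic neurons carried little.

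Grb10, an adaptor that dampens insulin and growth factor receptor signalling, lies at chr11:11930508-12038683 and was highest, among the neural classes, in progenitors of both origins. It stood at 150.0 CPM in knockout-labelled and 154 CPM in wild-type-labelled ganglionic eminence progenitors, at 131 CPM in knockout-labelled and 150.2 CPM in wild-type-labelled radial glia, and at 102 CPM in knockout-labelled and 105 CPM in wild-type-labelled dividing progenitors. In excitatory neurons it was low, at 2.21 CPM in knockout-labelled and 2.81 CPM in wild-type-labelled cells. Among neurons, GABAergic cluster 7, led by Tshz1, Pbx3, Six3 and Foxp2, kept 30.4 CPM in knockout-labelled and 38.3 CPM in wild-type-labelled cells. Outside the neural lineages, vascular cells held 165 CPM in knockout-labelled and 210.5 CPM in wild-type-labelled cells, choroid plexus 177 CPM in knockout-labelled and 223 CPM in wild-type-labelled cells, and meningeal fibroblasts 347 CPM in knockout-labelled and 204 CPM in wild-type-labelled cells.

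Dlk1, a membrane protein of the Notch ligand family that lacks the domain needed to activate Notch, was low in the neural classes and found mainly in part of the GABAergic neurons. It stood at 40.5 CPM in knockout-labelled and 35.2 CPM in wild-type-labelled striatal neurons, and at 29.8 CPM in knockout-labelled and 23.4 CPM in wild-type-labelled GABAergic neurons as a family. In excitatory neurons it came to 18 UMIs in 5528 knockout-labelled cells and 15 UMIs in 4498 wild-type-labelled cells, or 0.32 CPM in knockout-labelled and 0.269 CPM in wild-type-labelled cells. Within the GABAergic family it was near 0 in cluster 7, at 0.97 CPM in knockout-labelled and 1.69 CPM in wild-type-labelled cells, and in medial eminence interneurons outside cluster 17, the cluster described below, at 2.06 CPM in knockout-labelled and 0.865 CPM in wild-type-labelled cells. Radial glia held 32.9 CPM in knockout-labelled and 10.7 CPM in wild-type-labelled cells, most of it in few cells, as given below. The highest level was in vascular cells, at 403 CPM in knockout-labelled and 655 CPM in wild-type-labelled cells. Its neighbours Meg3 and Rian were not restricted in the same way, as the excitatory neurons above show, and the class-to-class correlation of Dlk1 was 0.52 with Meg3.

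Peg10, derived from a retrotransposon and needed for the placenta, resembled Dlk1 in its class pattern, with a correlation of 0.88. It lies at chr6:4747306-4760517. It stood at 55.3 CPM in knockout-labelled and 57.2 CPM in wild-type-labelled striatal neurons, at 35.5 CPM in knockout-labelled and 35.7 CPM in wild-type-labelled radial glia, and at 3.53 CPM in knockout-labelled and 3.15 CPM in wild-type-labelled excitatory neurons. Sgce, which starts 98 bases away on the opposite strand and is also imprinted, showed no such pattern, with a correlation of -0.02 across classes and 38.4 CPM in knockout-labelled and 37.4 CPM in wild-type-labelled cells overall.

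Shares of cells with a tag were compared after each cell was thinned to 1000 UMIs. Meg3 was then seen in 74.1% of knockout-labelled (95% interval 72.6 to 75.6%) and 75.8% of wild-type-labelled GABAergic neurons (95% interval 73.9 to 77.6%), against 24.3% of knockout-labelled and 21.1% of wild-type-labelled excitatory neurons and 16.5% of knockout-labelled and 12.6% of wild-type-labelled progenitors. Without thinning the share was 91.6% of knockout-labelled and 93.3% of wild-type-labelled GABAergic neurons. Thinned microglia carried a Meg3 tag in 3 of 83 knockout-labelled cells, or 3.61%, and in 0 of 51 wild-type-labelled cells. With an upper limit set at 3 cells, 0 of 51 allows a share of up to 5.88%. The median depth of microglia was 9561 UMIs in knockout-labelled and 7987 UMIs in wild-type-labelled cells. The Meg3 shares of all 3 families were higher than these, and the part of free RNA in them was not tested. Ndn was seen in 26.1% of knockout-labelled and 24.8% of wild-type-labelled GABAergic neurons, 17.7% of knockout-labelled and 16.9% of wild-type-labelled excitatory neurons, and 16.2% of knockout-labelled and 18.1% of wild-type-labelled progenitors. Grb10 was seen in 9.91% of knockout-labelled and 9.80% of wild-type-labelled progenitors, against 0.217% of knockout-labelled and 0.333% of wild-type-labelled excitatory neurons.

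Between the libraries, the 10 genes differed little over all cells. Of the 8 measured genes 0 were past 1.5-fold, that is beyond 0.58 in size on the log2 scale, and 0.570% of all 7017 measured genes were. The median log2 ratio of the 8 genes was 0.18, against -0.02 over all measured genes. Without cluster 17, described below, the members' median was 0.024, and with equal weight for each cluster 0.043. Counting intervals lay above 0 for 5 of the 8 genes, against 16.3% of all measured genes, and below 0 for 2 of the 8, against 33.6%. Meg3 stood at 1066 CPM (95% interval 1059.7 to 1072) in the knockout-labelled and 905 CPM (95% interval 899 to 911) in the wild-type-labelled library, a log2 ratio of 0.24 (95% interval 0.22 to 0.25). The highest ratio was that of Nap1l5, with 64.7 CPM in knockout-labelled and 51.1 CPM in wild-type-labelled cells and a log2 ratio of 0.34 (95% interval 0.29 to 0.40). Plagl1 was the lowest, with 19.9 CPM in knockout-labelled and 27.1 CPM in wild-type-labelled cells and a log2 ratio of -0.45 (95% interval -0.53 to -0.37). These sums mix cell types, and GABAergic neurons, where Meg3 is high, made up 3477 of 11533 knockout-labelled and 2024 of 8426 wild-type-labelled kept cells.

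Within families 1 gene in all was past the limit. In excitatory neurons 0 of 6 measured genes were past 1.5-fold, with 0.237% of all genes past it, and the ratios lay between -0.09 for Nap1l5 and 0.11 for Meg3 on the log2 scale. In progenitors 0 of 7 were past it, with 0.438% of all genes past it. In GABAergic neurons 1 of 8 was past it, with 0.541% of all genes past it, and that gene was Nap1l5, at 154 CPM in knockout-labelled and 86.1 CPM in wild-type-labelled cells and a log2 ratio of 0.84 (95% interval 0.74 to 0.93). Peg3 and Ndn were also higher in knockout-labelled GABAergic neurons, with log2 ratios of 0.46 (95% interval 0.36 to 0.55) and 0.26 (95% interval 0.22 to 0.31). Meg3 was nearly level in that family, at 3292 CPM in knockout-labelled and 3411 CPM in wild-type-labelled cells, where over all cells it had been higher in the knockout-labelled library.

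**Figure D3:**
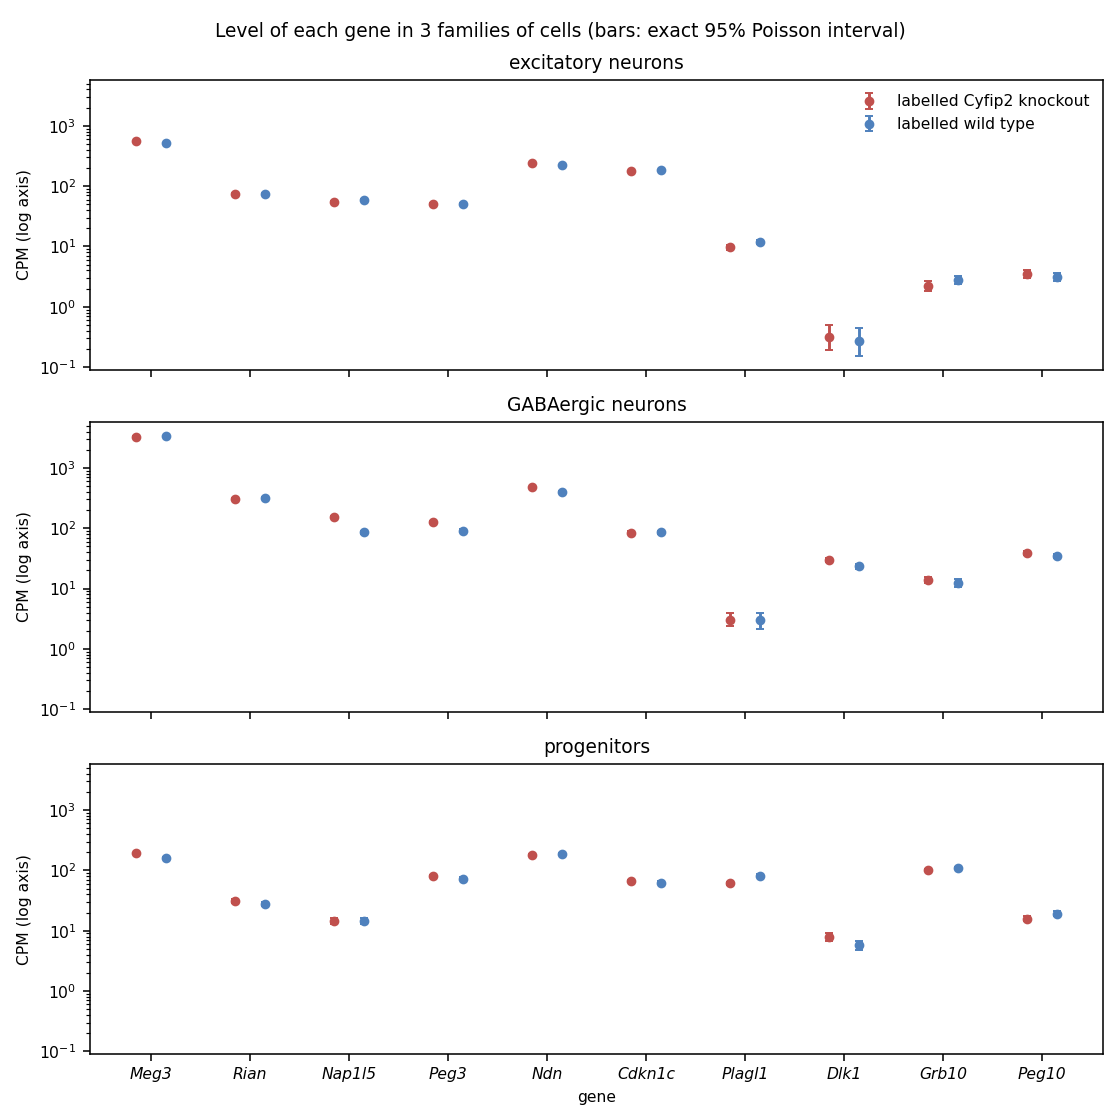
Level of each gene in CPM on a log axis in excitatory neurons, GABAergic neurons and progenitors; for each gene the left point is the library labelled Cyfip2 knockout and the right point the library labelled wild type, with exact 95% Poisson intervals. The points of a gene lie side by side in most cases, and the widest gap is that of Nap1l5 in GABAergic neurons, at 154 CPM labelled knockout and 86.1 CPM labelled wild type.

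Plagl1 was lower in knockout-labelled progenitors, at 61.1 CPM in knockout-labelled and 81.7 CPM in wild-type-labelled cells, a log2 ratio of -0.42 (95% interval -0.52 to -0.32). Radial glia, the class where it was highest of the 19, had a log2 ratio of -0.01 (95% interval -0.16 to 0.15). Dividing progenitors had -0.41 (95% interval -0.67 to -0.16), and intermediate progenitors -0.27 (95% interval -0.54 to -0.01). Radial glia made up 233 of 1817 knockout-labelled and 266 of 1470 wild-type-labelled progenitors, and with equal weight for each cluster the log2 ratio over progenitors was -0.17.

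By class, 16 of 113 measured pairs of gene and class were past 1.5-fold. They fell in 7 of 19 classes, which hold 46 of the pairs. Over all genes, 1357 of 43099 measured pairs in these 7 classes were past it, or 3.15%. In the other 11 classes with a measured member, which hold 67 member pairs, it was 672 of 70063 pairs over all genes, or 0.959%. The classes were split by whether a member was past the limit. That none of the 67 member pairs was past it follows from this split. Microglia had no measured member. Of the 16, medial eminence interneurons and radial glia had 5 each.

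**Figure D4:**
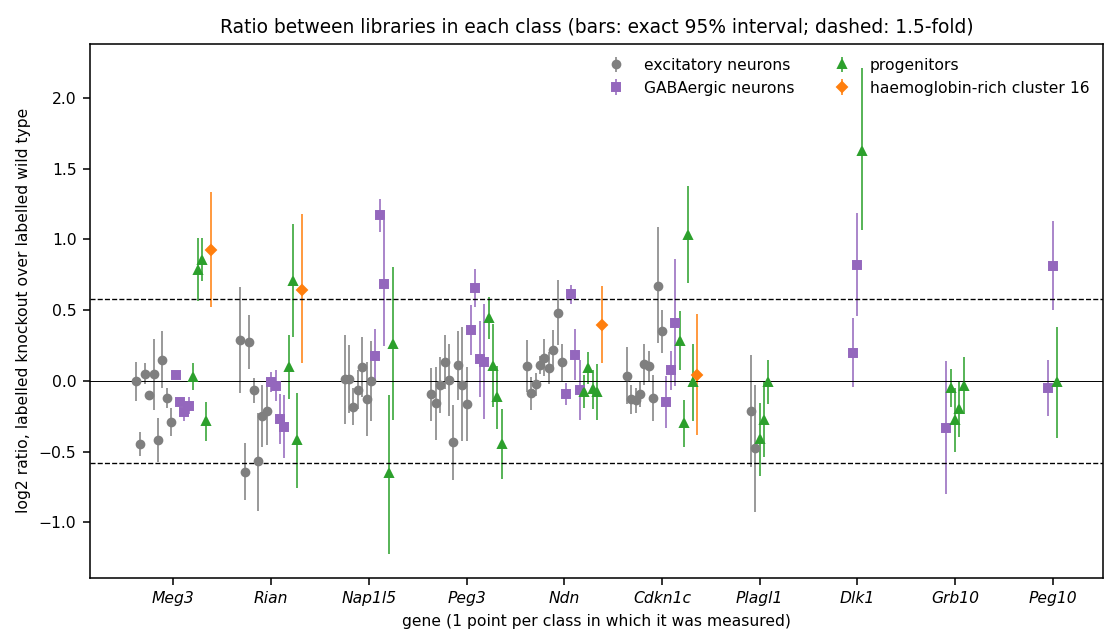
Log2 ratio of the library labelled Cyfip2 knockout over the library labelled wild type for each gene, 1 point for each class in which it was measured, with exact 95% intervals; colours give the family and dashed lines the 1.5-fold limit. Most points lie between the dashed lines, and those above include Nap1l5 in medial eminence interneurons at 1.17 and Dlk1 in radial glia at 1.63.

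In medial eminence interneurons, 5 of 8 measured genes were past 1.5-fold, all higher in knockout-labelled cells, and 1.56% of all measured genes were past it in either direction. Nap1l5 stood at 297 CPM (95% interval 286 to 309) in knockout-labelled and 132 CPM (95% interval 123 to 142) in wild-type-labelled cells, a log2 ratio of 1.17 (95% interval 1.06 to 1.29). Ndn stood at 694 CPM in knockout-labelled and 454 CPM in wild-type-labelled cells, a log2 ratio of 0.61 (95% interval 0.55 to 0.68). Peg3 had 176 CPM in knockout-labelled and 112 CPM in wild-type-labelled cells, a log2 ratio of 0.66 (95% interval 0.52 to 0.79). The low genes Dlk1 and Peg10 had log2 ratios of 0.82 (95% interval 0.46 to 1.19) and 0.81 (95% interval 0.50 to 1.13). Meg3 went the other way, with a log2 ratio of -0.15 (95% interval -0.18 to -0.12).

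The ratios of Nap1l5, Peg3 and Ndn rested on 1 of the 3 clusters of the class. Cluster 17, led by Sst, Lhx8, Zic4, Snhg11 and Zic1, held 363 of 1149 knockout-labelled and 145 of 770 wild-type-labelled cells, 3.15% of all knockout-labelled and 1.72% of all wild-type-labelled cells. It was placed in the class by the fixed markers. Nxph1, Lhx6 and Maf, which led cluster 4, were not among the 10 leading genes of cluster 17. The class name is therefore less sure for cluster 17. Without cluster 17, 0 of 6 measured members were past 1.5-fold in the class, and 0.607% of all measured genes were past it. The log2 ratio of Nap1l5 in medial eminence interneurons was then -0.044, the log2 ratio of Peg3 in medial eminence interneurons -0.079, and that of Ndn 0.20. Dlk1 and Peg10 were then under the minimum level, with ratios of 1.25 and 0.68 that were not counted. With equal weight for each cluster, Nap1l5 was the single member past 1.5-fold, and 0.943% of all measured genes were past it. The log2 ratio of Peg3 in medial eminence interneurons was then 0.46 and the log2 ratio of Ndn in medial eminence interneurons 0.27. The log2 ratio of Dlk1 in medial eminence interneurons was 0.18 and the log2 ratio of Peg10 in medial eminence interneurons 0.35. In GABAergic neurons as a whole, leaving out cluster 17 moved Nap1l5 to 0.05. Again 0 members were past 1.5-fold, and 0.383% of all measured genes were. Cluster 4, the largest of the class, had Nap1l5 at 99.7 CPM in knockout-labelled and 106 CPM in wild-type-labelled cells and Ndn at 285 CPM in knockout-labelled and 249.7 CPM in wild-type-labelled cells.

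Inside cluster 17, Nap1l5 stood at 618 CPM in knockout-labelled and 217 CPM in wild-type-labelled cells, a log2 ratio of 1.51 (95% interval 1.34 to 1.69). The cluster thereby held 28.8% of all Nap1l5 UMIs of knockout-labelled and 6.27% of those of wild-type-labelled cells. Peg3 stood at 352 CPM in knockout-labelled and 237 CPM in wild-type-labelled cells, a log2 ratio of 0.57 (95% interval 0.40 to 0.75). Ndn was also high there, at 1369.7 CPM in knockout-labelled and 1125 CPM in wild-type-labelled cells, with the smaller log2 ratio of 0.28 (95% interval 0.20 to 0.37). Dlk1 had 65.2 CPM in knockout-labelled and 59.7 CPM in wild-type-labelled cells and Peg10 78.1 CPM in knockout-labelled and 66.7 CPM in wild-type-labelled cells, with intervals of the ratio that include 0. Meg3 was lower in the knockout-labelled cells of the cluster, at 4383 CPM in knockout-labelled and 6964 CPM in wild-type-labelled cells, and so was Rian, at 342 CPM in knockout-labelled and 518 CPM in wild-type-labelled cells, with log2 ratios of -0.67 and -0.60.

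A finer clustering split cluster 17 in 2 main parts. In the part with 217 knockout-labelled and 89 wild-type-labelled cells, Nap1l5 stood at 936 CPM in knockout-labelled and 219 CPM in wild-type-labelled cells. In the other part, with 144 knockout-labelled and 54 wild-type-labelled cells, it was nearly level, at 239 CPM in knockout-labelled and 217 CPM in wild-type-labelled cells. Few cells held much of the signal, counted by a limit set after these values were seen: 13 knockout-labelled cells of the cluster had at least 20 Nap1l5 UMIs each, 1124 UMIs together, which is 16.2% of the Nap1l5 UMIs of all knockout-labelled cells, and 0 wild-type-labelled cells had as many. Those 13 cells also held Ndn at 3534 CPM, Peg3 at 1144 CPM, and Dlk1 at 354 CPM. They were deep, with a median of 16512 UMIs against 7840 UMIs for knockout-labelled cells of the cluster. Without those 13 cells, Nap1l5 in cluster 17 stood at 291 CPM in knockout-labelled and 217 CPM in wild-type-labelled cells. Its log2 ratio was then 0.43 (95% interval 0.24 to 0.62), within 1.5-fold. The 10 cells richest in Nap1l5 were also left out of each library, a number set after the values were seen. Nap1l5 then stood at 312 CPM in knockout-labelled and 178 CPM in wild-type-labelled cells. That log2 ratio of 0.81 (95% interval 0.59 to 1.02) was past 1.5-fold. Those 10 cells were a larger part of the 145 wild-type-labelled than of the 363 knockout-labelled cells of the cluster. The libraries were thus not trimmed alike.

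The cells of cluster 17 were not the same mixture in both libraries. The homeobox genes Hmx2 and Hmx3, named here after their values were seen, had 148 and 101 UMIs in knockout-labelled cells of the cluster and 0 UMIs each in wild-type-labelled cells. At least 1 of them was seen in 25 of 363 knockout-labelled cells, or 6.89%, and in 10 of the 13 cells rich in Nap1l5. The summed level of the 8 medial eminence markers in the cluster was 2162 CPM in knockout-labelled and 1402 CPM in wild-type-labelled cells, with 2 of the 8 higher in knockout-labelled cells. The part of such cells in the result was not tested beyond the values above, and with 1 library a group a difference of genotype and a difference in the tissue taken cannot be told apart.

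**Figure D5:**
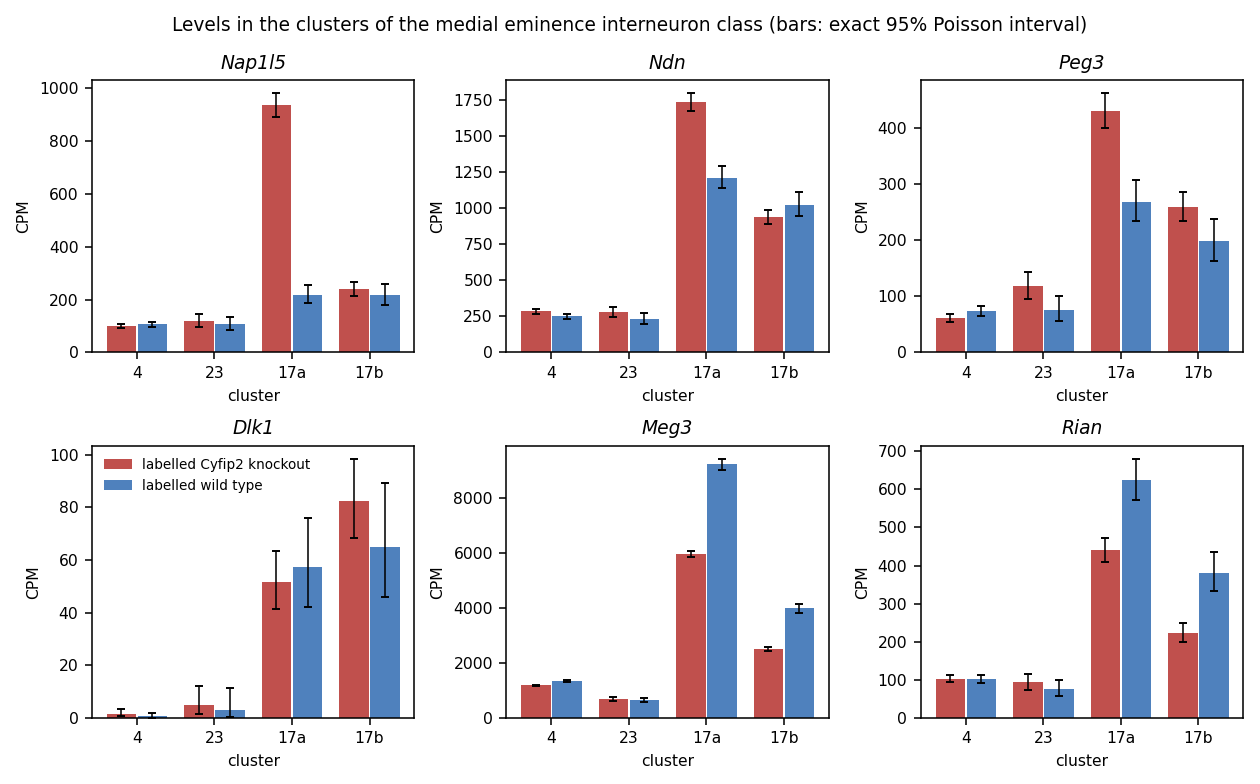
Level in CPM of 6 of the genes in clusters 4 and 23 and in the 2 main parts of cluster 17, all of the medial eminence interneuron class; left bars are the library labelled Cyfip2 knockout, right bars the library labelled wild type, with exact 95% Poisson intervals, and axes start at 0. Nap1l5 is high in a single bar, part 17a labelled knockout at 936 CPM, while Meg3 and Rian are higher in the bars labelled wild type in both parts of cluster 17.

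In radial glia, 5 of 10 measured genes were past 1.5-fold, 4 higher and 1 lower in knockout-labelled cells, and 2.10% of all measured genes were past it. Meg3 stood at 312 CPM in knockout-labelled and 172 CPM in wild-type-labelled cells, a log2 ratio of 0.86 (95% interval 0.71 to 1.01). Rian stood at 44.5 CPM in knockout-labelled and 27.2 CPM in wild-type-labelled cells, a log2 ratio of 0.71 (95% interval 0.31 to 1.11). Both noncoding RNAs of the domain were thus higher, while Plagl1, Grb10, Ndn, Peg3 and Peg10 stayed within 1.5-fold. Cdkn1c had 68.4 CPM in knockout-labelled and 33.4 CPM in wild-type-labelled cells, a log2 ratio of 1.03 (95% interval 0.69 to 1.38). Dlk1 had 32.9 CPM in knockout-labelled and 10.7 CPM in wild-type-labelled cells, a log2 ratio of 1.63 (95% interval 1.06 to 2.21). Nap1l5, at 15.2 CPM in knockout-labelled and 23.9 CPM in wild-type-labelled cells, was the gene that was lower, with a log2 ratio of -0.65 (95% interval -1.22 to -0.10).

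Again few cells held much of the signal of some of these genes, though Meg3 was seen more widely. At least 1 Meg3 UMI was found in 117 of 233 knockout-labelled and 88 of 266 wild-type-labelled radial glia. Of Cdkn1c UMIs in radial glia, the 10 richest cells held 87.8% in the knockout-labelled and 86.6% in the wild-type-labelled library, and of Dlk1 UMIs 83.5% in the knockout-labelled and 52.6% in the wild-type-labelled library. Without those 10 cells of each library, Dlk1 stood at 5.80 CPM in knockout-labelled and 5.30 CPM in wild-type-labelled cells, and Meg3 at 157 CPM in knockout-labelled and 123 CPM in wild-type-labelled cells, log2 ratios of 0.13 and 0.35. Cdkn1c was at 8.87 CPM in knockout-labelled and 4.67 CPM in wild-type-labelled cells, a log2 ratio of 0.93. Rian was then at 23.7 CPM in knockout-labelled and 16.7 CPM in wild-type-labelled cells, and Nap1l5 at 6.98 CPM in knockout-labelled and 13.6 CPM in wild-type-labelled cells. Of Meg3 UMIs, the 10 cells richest in it had held 52.8% in the knockout-labelled and 32.7% in the wild-type-labelled library. Marker sets of other types differed in both directions. The summed level of 8 meningeal markers was 61.5 CPM in knockout-labelled and 10.4 CPM in wild-type-labelled radial glia. Of these 8, 5 were higher in knockout-labelled cells and 3 were at 0 in each library. The sum of 8 medial eminence markers was 108 CPM in knockout-labelled and 49.1 CPM in wild-type-labelled radial glia. Again 5 of the 8 were higher in knockout-labelled cells. Sums of deep-layer, GABAergic and choroid plexus markers were also higher in knockout-labelled radial glia. Sums of upper-layer, caudal or lateral eminence, striatal, intermediate progenitor and diencephalic markers were lower, and the sum of excitatory markers was nearly level. Their part in the result was not tested. When no doublets were removed, 3 genes were past 1.5-fold, Nap1l5, Cdkn1c and Dlk1. The log2 ratio of Nap1l5 in radial glia was -0.20 with a finer clustering at resolution 2 and -0.56 with imprinted genes allowed in the clustering.

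Other classes had 1 or 2 genes past the limit each. In intermediate progenitors, with 1 of 6 measured genes past it, that gene was Meg3, with 77.8 CPM in knockout-labelled and 45.1 CPM in wild-type-labelled cells and a log2 ratio of 0.79 (95% interval 0.56 to 1.01), and 0.523% of all genes were past it. The log2 ratio of Meg3 in intermediate progenitors was 0.55 without doublet removal and 0.52 with imprinted genes allowed in the clustering, both within 1.5-fold. Sets of neuronal markers differed unevenly in these intermediate progenitors. In knockout-labelled cells 8 of 9 deep-layer markers were higher, with summed levels of 475 CPM in knockout-labelled and 420.0 CPM in wild-type-labelled cells. Of the GABAergic markers 7 of 8 were higher, at 83.1 CPM in knockout-labelled and 68.4 CPM in wild-type-labelled cells. It was 5 of 10 for excitatory, 4 of 7 for upper-layer, 5 of 6 for migrating and 8 of 12 for striatal markers. It was 7 of 8 for medial eminence, 5 of 8 for caudal or lateral eminence, 6 of 9 for Cajal-Retzius and 2 of 7 for diencephalic markers. Of 9 markers of dividing progenitors, 0 were higher in knockout-labelled cells, at 475 CPM in knockout-labelled and 564 CPM in wild-type-labelled cells. Their part in the result was not tested. Subtracting the free RNA profile at 5% of the UMIs moved the log2 ratio of Meg3 in intermediate progenitors to 3.49, and at 10% no ratio could be formed. The ratio thus depends on the share of free RNA assumed, which was not measured in this class. The Meg3 level of intermediate progenitors lay above that of microglia in both libraries. The part of free RNA in the ratio was not tested. In excitatory cluster 1 it was Rian, 1 of 6, lower at 47.1 CPM in knockout-labelled and 73.4 CPM in wild-type-labelled cells, with a log2 ratio of -0.64 (95% interval -0.84 to -0.44) and 0.814% of all genes past it. Meg3 pointed the same way there, at 277 CPM in knockout-labelled and 377 CPM in wild-type-labelled cells and a log2 ratio of -0.44 (95% interval -0.53 to -0.36). With at most 5% mitochondrial UMIs the log2 ratio of Rian in excitatory cluster 1 was -0.56, within the limit. The mitochondrial share of that cluster was 4.32% in knockout-labelled and 3.63% in wild-type-labelled cells, and its part in the result was not tested.

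In excitatory cluster 5 the pair ran the same way within the limit, with log2 ratios of -0.42 (95% interval -0.57 to -0.26) for Meg3 and -0.57 (95% interval -0.92 to -0.23) for Rian.

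In GABAergic cluster 7 the gene was Nap1l5, 1 of 7, with 53.4 CPM in knockout-labelled and 33.2 CPM in wild-type-labelled cells, a log2 ratio of 0.69 (95% interval 0.25 to 1.14) and 2.93% of all genes past the limit. In excitatory cluster 13 it was Cdkn1c, 1 of 5, with 97.5 CPM in knockout-labelled and 61.4 CPM in wild-type-labelled cells and a log2 ratio of 0.67 (95% interval 0.27 to 1.09). There 10.2% of all genes were past 1.5-fold, and the cluster held 576 knockout-labelled and 129 wild-type-labelled cells, so the single gene says little against that background. In the haemoglobin-rich cluster 16, Meg3 and Rian, 2 of 4, were past it, with log2 ratios of 0.92 (95% interval 0.52 to 1.34) and 0.64 (95% interval 0.13 to 1.18), and 5.66% of all genes were. Malat1, another nuclear RNA, was higher in knockout-labelled cells of that cluster too, with a log2 ratio of 1.64 from the values above. Markers of the neurons where Meg3 and Rian are highest were also higher there: the summed level of 12 striatal markers was 1533 CPM in knockout-labelled and 796 CPM in wild-type-labelled cells, with 11 of the 12 higher in knockout-labelled cells, and that of 8 GABAergic markers 437 CPM in knockout-labelled and 293 CPM in wild-type-labelled cells, with 7 of the 8 higher. The part of either in the result was not tested.

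Some small classes, under 50 cells in at least 1 library, differed more and were not counted. Meningeal fibroblasts had Cdkn1c at 3311 CPM in knockout-labelled and 1586 CPM in wild-type-labelled cells, and Dlk1 at 74.0 CPM in knockout-labelled and 223 CPM in wild-type-labelled cells. In choroid plexus Dlk1 stood at 1.59 CPM in knockout-labelled and 103 CPM in wild-type-labelled cells, with 1 UMI in the 34 knockout-labelled and 72 UMIs in the 29 wild-type-labelled cells. Vascular cells had Meg3 at 778 CPM in knockout-labelled and 1559 CPM in wild-type-labelled cells. Differences of this size in classes of few cells differed in both directions and give no direction for the genes.

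A wider list of 59 imprinted genes outside these 10 gave a wider view. Of them 57 were found by symbol and 26 were measured over all cells, and 0 were past 1.5-fold over all cells, in excitatory neurons, in GABAergic neurons or in progenitors. Their median log2 ratio over all cells was 0.02. Nnat, which encodes neuronatin, a small membrane protein of the endoplasmic reticulum, had the highest ratio, at 1882 CPM in knockout-labelled and 1432 CPM in wild-type-labelled cells and a log2 value of 0.39 (95% interval 0.38 to 0.40). The signalling gene Gnas stood at 1108 CPM in knockout-labelled and 1098 CPM in wild-type-labelled cells, and the noncoding Kcnq1ot1, which lies in the domain of Cdkn1c, at 332 CPM in knockout-labelled and 346 CPM in wild-type-labelled cells. From the domain of Ndn, the ubiquitin ligase gene Ube3a stood at 269 CPM in knockout-labelled and 264 CPM in wild-type-labelled cells, the splicing protein gene Snrpn at 188 CPM in knockout-labelled and 185 CPM in wild-type-labelled cells, and the noncoding Snhg14 at 94.3 CPM in knockout-labelled and 94.1 CPM in wild-type-labelled cells. The other 4 of the 10 highest, Nap1l4, Cd81, Inpp5f and Ppp1r9a, had log2 ratios between -0.07 and 0.06. In single classes few of these genes were past 1.5-fold. In medial eminence interneurons it was 1 of 26 measured, Zdbf2 at 0.95, and none without cluster 17 or with equal weight for each cluster. In ganglionic eminence progenitors it was 1 of 25 measured, Mest at 0.98, where 2.55% of all measured genes were past the limit. In excitatory cluster 13, with the share of 10.2% given above, it was 1 of 26, Zrsr1 at -0.77. In microglia, where 8.78% of all measured genes were past it, it was 2 of 5, with Nnat at 1.17 and Kcnq1ot1 at -0.93.

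Domain neighbours followed the members to different degrees. Snrpn had a class-to-class correlation of 0.89 with Ndn, and Asb4 of 0.75 with Peg10. With Cdkn1c the value was 0.25 for Kcnq1ot1, which silences this gene on the paternal copy, and 0.63 for Osbpl5. Other neighbours of Cdkn1c ran opposite to it, with -0.74 for Tspan32, -0.73 for Cd81 and -0.55 for Ascl2. Grb10 and its neighbour Ddc had 0.63. These are descriptions over 38 points from the same 2 libraries. Below the minimum level over all cells, Dio3, which encodes a deiodinase at the far end of the Dlk1 domain, had 269 UMIs in knockout-labelled and 94 UMIs in wild-type-labelled cells, and Asb4 had 508 UMIs in knockout-labelled and 260 UMIs in wild-type-labelled cells. Cluster 17 held 75 of the Dio3 UMIs in knockout-labelled and 4 in wild-type-labelled cells.

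The genes outside both lists whose class pattern was most like that of each member were named by the 3 highest correlations of log2(CPM + 1) among 6977 candidates over 19 classes in both libraries. For Meg3 and for Rian these were Dpp6, Cdk14 and Dner, led by Dpp6 at 0.91 with Meg3 and 0.93 with Rian. For Ndn they were Asphd2, Fxyd6 and Zfp428, led by 0.94. For Nap1l5 they were Dpf1, Dynll2 and Cacng4, led by 0.88. For Peg3 they were U2surp, Thap2 and Cbx6, led by 0.91. For Cdkn1c they were 2900097C17Rik, Pfdn4 and Fbxo45, led by 0.93. For Plagl1 they were Sfrp1, Plpp3 and Celsr1, led by 0.92, and for Grb10 Myo10, H2afv and Sox21, led by 0.96. Dlk1 and Peg10 had weaker likenesses, led by Sox2ot at 0.81 and Sox1ot at 0.80.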

How the data were processed

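Per the file headers, the deposited count matrices were made by the authors with Cell Ranger 4, and hold whole UMI counts per gene and barcode. The genome build named in the submitters' processing notes is mm10; the strand used in counting is not given in the sources used here. The members and the wider list were chosen with earlier results of these data known. From the counts, barcodes were filtered at 1000 UMIs, 500 genes and 10% mitochondrial UMIs, scored for doublets by simulated neighbours (15 neighbours, a size set after larger ones removed vascular and meningeal cells), and removed at 0.8% for each 1000 called cells, 1322 of 12855 knockout-labelled and 660 of 9086 wild-type-labelled. Clustering used 2000 variable genes without imprinted genes, 30 components and Leiden at resolution 1 (leidenalg 0.10.2, scikit-learn 1.9.0), giving 34 clusters, named with 24 marker sets. UMIs were summed for each class and library. With 1 library a group, a ratio carries only counting error, and the share of all measured genes past 1.5-fold stands beside the first count of members in each comparison. Named genes are the 10 members in every class, wider-list genes that share a member's domain, are past 1.5-fold in all cells or a family or are among the 10 highest, and the 3 genes most like each member. The UMI minimum, the mitochondrial limit, doublet removal, scaling, cluster weights, free RNA subtraction, the genes allowed in clustering, the resolution, the minimum level, the thinning depth and the correlation were also varied. The programs were tested on simulated data.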

Additional observations from a re-analysis of the deposited data

Results flagged for a closer look

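Ratios of the same gene, knockout-labelled over wild-type-labelled, pointed opposite ways in different classes for 4 pairs of values, with the counting intervals of each ratio on opposite sides of 0. Rian had a log2 ratio of 0.71 in radial glia and -0.64 in excitatory cluster 1, and of 0.64 in the haemoglobin-rich cluster 16 against the same -0.64. Nap1l5 had a log2 ratio of 1.17 in medial eminence interneurons and 0.69 in GABAergic cluster 7, against -0.65 in radial glia. With 1 library in each group these differences between classes were not tested.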

How the results depend on the processing

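No paired analysis was possible because each group is 1 library, and for the same reason no library could be left out. The counts of members past 1.5-fold kept within 1.5 times their value under 71 of 75 alternatives. Leaving out cluster 17, which was chosen after seeing the data, left 0 in GABAergic neurons and 0 in medial eminence interneurons, and turned the log2 ratio of Nap1l5 in medial eminence interneurons to -0.044 and the log2 ratio of Peg3 in medial eminence interneurons to -0.079. Equal weight for each cluster left 1 in medial eminence interneurons. Without doublet removal, 3 remained past the limit in radial glia. Of the log2 ratios under all alternatives, 1827 stayed within their counting interval and 147 moved beyond it. A turn of direction was looked for only in ratios past 1.5-fold in the main analysis, and 2 of those values turned. Ratios within 1.5-fold could change sign without being counted as turned. Of the levels, 417 stayed within their counting interval and 263 did not. Of the shares, 3 stayed within it and 117 did not. With Spearman correlation at least 2 of the 3 most similar genes were shared for 1 of 10 members, and with the wild-type-labelled library alone for 6 of 10. Levels below about 20 CPM are limited by depth.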
